A study of Homo sapiens with 18 samples.

Results

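The genes described here are 9 genes of gluconeogenesis and fructose metabolism, PC, PCK1, PCK2, FBP1, SLC37A4, G6PC1, SLC2A2, KHK and PPARGC1A, of 19720 genes that could be named on the array. They were chosen by function and for the lower signal of PCK1 and G6PC1 in cells given disulfiram, so the disulfiram values of all 9 chose the set and are given as a description without a test. Every probe listed under these genes was taken, which gave 10 probes for 9 genes, since PCK2 has 2. All 9 genes were among the 15844 named genes tested, that is, well above background by the scanner's flag on all 3 arrays of at least 1 group.

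The cells were Huh1 and Huh7, human hepatocellular carcinoma (HCC) lines, sorted by flow cytometry for EpCAM, a surface protein that marks tumor-initiating cells in HCC. Each line was left as a control or was exposed for 48 hours to disulfiram (DSF, 0.1 µM), an inhibitor of aldehyde dehydrogenase that binds copper, or to 5-fluorouracil (5-FU, 1 µM), an antimetabolite, with 3 one-color arrays in each of the 6 groups. The study's methods give DSF together with copper chloride and do not say whether the control cells had copper, so DSF and copper cannot be told apart. They describe triplicates from separate experiments, and each line is a single established culture rather than liver tissue.

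Gluconeogenesis makes glucose from lactate, amino acids and glycerol, and in the body it is mainly a task of hepatocytes and kidney tubule cells. PC turns pyruvate into oxaloacetate, PCK1 in the cytosol and PCK2 in mitochondria turn oxaloacetate into phosphoenolpyruvate, FBP1 removes a phosphate from fructose bisphosphate, and SLC37A4 and G6PC1 together carry glucose 6-phosphate into the endoplasmic reticulum and release glucose from it. SLC2A2 (GLUT2) is the glucose and fructose carrier of the hepatocyte membrane, KHK traps fructose as fructose 1-phosphate, and PPARGC1A is a transcriptional coactivator that raises the gluconeogenic genes in fasting.

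A signal below is the log2 of the scanner's background-subtracted intensity minus the 75th percentile of its array, so that 0 is the 75th percentile. Signals of different probes were not set against each other. Over all tested probes, arrays of a group correlated at 0.9887 to 0.9972. The 9 fixed markers of a hepatocyte-like HCC line, ALB, AFP, GPC3, EPCAM, KRT8, KRT18, APOA1, TTR and SERPINA1, were well above background on all 18 arrays. Of 9 markers of blood, endothelial, stromal and basal cells, PTPRC, CD68, PECAM1 and CDH5 were so on all 18, and KRT5 on 1. The summed signal of these 9 lay at 0.49 to 0.52 in Huh7 controls and at 1.53 to 2.11 in Huh7 5-FU arrays, most of it from CD68, and their part in the results was not tested. EPCAM, the gene of the sort, had a mean of 2.62, 3.01 and 1.96 in Huh1 controls, 5-FU and DSF arrays, and of 5.49, 5.74 and 5.00 in those of Huh7. In sorted bulk cells a lower share of cells making an RNA and less of it per cell cannot be told apart.

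The 18 arrays lay on 3 slides. All control and 5-FU arrays of Huh1 shared a slide, as did those of Huh7, so 5-FU and control arrays of a line were compared within a slide, whereas the slides of the Huh1 and Huh7 controls differed. Of the DSF arrays, 2 of Huh1 and 1 of Huh7 lay on the slide of their controls, and 2 of Huh7 lay on a slide of their own that was scanned on another day. Array 1 of Huh1 5-FU stood apart: it was the highest of its group for 8 of the 9 genes and lay over 0.5 from the mean of the other two arrays for 6 of them, against 13.9% of all tested genes. Array 1 of Huh7 5-FU, which differed by that much in 14.3% of tested genes, was the lowest of its group for 6 of the 9. Where leaving out either array made or ended a call of these genes, or moved a called value by over 1.5 times, the value without it is given beside the result.

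After DSF, the signals of PCK1 and G6PC1, which chose the set, were lower in both lines, and those of FBP1 and SLC37A4 were lower too. In Huh1 every DSF array lay below every control array for 7 of the 9 genes, against 35.4% of all tested genes, and above for 1, PPARGC1A, against 32.6%. In Huh7 every DSF array lay below for 6 genes, against 32.4% of tested genes, and above for 3, KHK, SLC2A2 and PPARGC1A, against 37.0%. Since these values chose the genes, the counts carry no test.

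**Figure D1:**
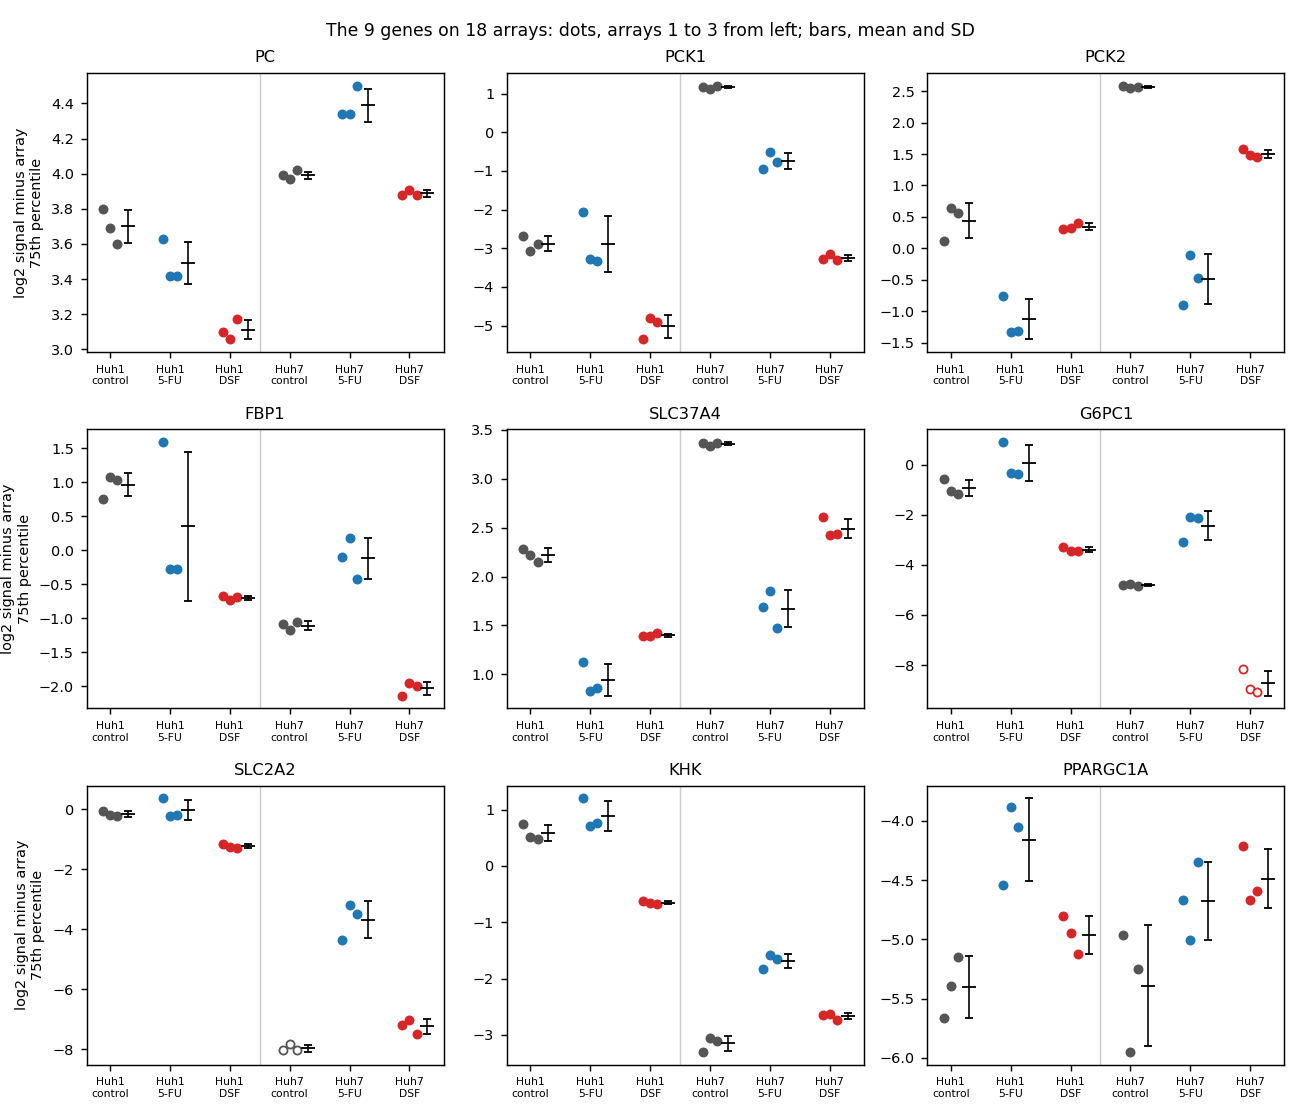
Signal (log2, minus the array's 75th percentile) of the 9 genes on each array of the 6 groups, with the mean and SD beside the dots. Open dots mark groups in which no array was well above background, which are G6PC1 in Huh7 DSF (mean -8.72) and SLC2A2 in Huh7 controls (mean -7.97). PCK1 was lowest in the DSF groups of both lines, and PPARGC1A ran only from -5.95 to -3.88 over all arrays.

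PCK1, the cytosolic carboxykinase that commits oxaloacetate to glucose, gave -2.68, -3.07 and -2.90 on the Huh1 control arrays and -5.36, -4.80 and -4.90 on the Huh1 DSF arrays. In Huh7 the controls gave 1.18, 1.13 and 1.19 and the DSF arrays -3.28, -3.16 and -3.30. The groups did not overlap in either line, and the log2 change was -2.14 ± 0.26 (SE, n = 3 arrays per group) in Huh1 and -4.42 ± 0.26 in Huh7, the latter 21.3-fold lower. Against the controls of the same slide alone, the differences were -2.20 with 2 DSF arrays in Huh1 and -4.45 with 1 in Huh7. With normexp, a model-based background correction that was run with an added offset of 50, the Huh1 change was -1.06. The offset draws changes of dim signals toward no change, here and wherever normexp is given.

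G6PC1, which releases free glucose as the last step, gave -0.59, -1.06 and -1.17 in Huh1 controls and -3.28, -3.46 and -3.43 in Huh1 DSF cells, a log2 change of -2.45 ± 0.34. In Huh7 the controls were at -4.79, -4.75 and -4.85, and after DSF no array was well above background (-8.14, -8.95 and -9.06). G6PC1 was at least 6.12-fold lower in Huh7 after DSF, a bound from the lowest signal that counted as well above background on each array, and normexp gave a log2 change of -0.95. SLC37A4 and FBP1 were also lower. SLC37A4, the glucose 6-phosphate carrier, gave 2.28, 2.22 and 2.15 in Huh1 controls and 1.39, 1.39 and 1.42 after DSF, and 3.37, 3.34 and 3.37 against 2.61, 2.43 and 2.44 in Huh7. Its log2 changes of -0.82 ± 0.10 and -0.86 ± 0.10 were close to each other in size. FBP1 had a log2 change of -1.65 ± 0.35 in Huh1 and -0.92 ± 0.35 in Huh7, with no overlap of the arrays.

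KHK, the fructose kinase, was lower after DSF in Huh1 and higher in Huh7, a difference that was not tested. It gave 0.74, 0.52 and 0.47 in Huh1 controls and -0.62, -0.65 and -0.67 after DSF, but -3.30, -3.06 and -3.10 in Huh7 controls and -2.65, -2.62 and -2.73 after DSF. The log2 change was -1.22 ± 0.12 in Huh1 and 0.49 ± 0.12 in Huh7, and no array of DSF overlapped the controls. SLC2A2, the fructose and glucose carrier, was at -0.04, -0.20 and -0.22 in Huh1 controls and at -1.15, -1.26 and -1.29 after DSF. In Huh7 SLC2A2 was well above background on 0 of 3 control arrays and on 1 of 3 DSF arrays, so no fold is given there.

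PC, which supplies oxaloacetate, had a log2 change of -0.59 ± 0.07 in Huh1 and -0.11 ± 0.07 in Huh7 after DSF. PPARGC1A, the coactivator, was dim throughout: it was well above background on 2 of 3 Huh1 control arrays and on all arrays of the other groups, and its signals ran from -5.95 to -3.88. DSF moved it by 0.44 ± 0.25 (log2) in Huh1 cells and by 0.90 ± 0.25 in Huh7 cells, and with normexp by 0.09 and 0.18. PPARGC1A was not lower in the lines in which PCK1 and G6PC1 were lower, and a link between them was not tested.

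PCK2 was the gene whose probes disagreed. The brighter probe, listed under NM_004563, gave 0.12, 0.64 and 0.56 in Huh1 controls and 0.30, 0.32 and 0.41 after DSF, so the groups overlapped and the log2 change was -0.10 ± 0.19. In Huh7 it gave 2.58, 2.55 and 2.57 in controls and 1.58, 1.48 and 1.45 after DSF, a change of -1.06 ± 0.19. The dimmer probe, listed under the transcript NM_001018073, gave -2.66, -2.70 and -2.66 in Huh1 controls and -1.82, -1.90 and -2.09 after DSF, which was higher by 0.73 ± 0.08 (SE of the difference of these means alone), and in Huh7 it was higher by 0.18 ± 0.05. Neither pair of groups overlapped on this probe, so the direction of PCK2 after DSF depends on the probe. The mean of both probes gave 0.32 in Huh1 and -0.44 in Huh7.

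The values of 5-FU against control did not choose the genes, but they share the control arrays with those of DSF. After 5-FU the 9 genes split in Huh7: SLC2A2, G6PC1, KHK, FBP1, PPARGC1A and PC rose and PCK2, PCK1 and SLC37A4 fell. All 9 passed limma's test at an adjusted p under 0.05, 6 of them higher, against 32.5% of all tested genes, and 3 lower, against 31.0%. In Huh1, 6 of the 9 passed: 3 were higher (PPARGC1A, G6PC1 and KHK), against 25.9% of tested genes, and 3 were lower (PCK2, SLC37A4 and PC), against 29.1%. Without control array 2 of Huh1, 3 passed there. These directions are relative to the 75th percentile. Scaling by 6 spiked-in control RNAs instead moved the median log2 change of all tested genes after 5-FU to 0.80 in Huh1 and 0.98 in Huh7, and with it PC (0.62) turned to higher in Huh1, while the other called genes kept their directions.

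PCK2 fell in both lines and on both probes. The brighter probe gave -0.76, -1.33 and -1.31 on the Huh1 5-FU arrays, a log2 change of -1.57 ± 0.19 (limma, adjusted p = 1.22e-05), and -0.90, -0.10 and -0.47 in Huh7, a change of -3.06 ± 0.19 (limma, adjusted p = 8.81e-09). In both lines every 5-FU array lay below every control array. On the dimmer probe the differences of the means were -1.12 ± 0.10 and -1.98 ± 0.23. SLC37A4 fell as well, to 1.12, 0.83 and 0.86 in Huh1 and 1.69, 1.85 and 1.47 in Huh7. Its changes were -1.28 ± 0.10 (limma, adjusted p = 1.88e-07) and -1.69 ± 0.10 (limma, adjusted p = 3.86e-09).

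G6PC1 rose where SLC37A4, its partner at the same step, fell. It reached 0.90, -0.35 and -0.38 on the Huh1 5-FU arrays and -3.09, -2.08 and -2.12 on those of Huh7, above all controls in each line. The log2 changes were 1.00 ± 0.34 (limma, adjusted p = 0.0279) in Huh1 and 2.36 ± 0.34 (limma, adjusted p = 3.92e-05) in Huh7. The Huh1 call was lost without array 1 of 5-FU (0.57, adjusted p = 0.135), without control array 2 (0.94, adjusted p = 0.0742) or without control array 3 (0.88, adjusted p = 0.0883).

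SLC2A2, the hepatocyte glucose and fructose carrier, was above background in Huh7 after 5-FU, with signals of -4.35, -3.19 and -3.49 and all 3 arrays well above background, against 0 of 3 control arrays. It was at least 8.64-fold higher (limma, adjusted p = 3.18e-09 for the fitted change). With normexp, whose offset shrinks changes of dim signals, the log2 change was 1.00. In Huh1, where it was already well above background, it gave 0.37, -0.21 and -0.20 after 5-FU, which overlapped the controls (0.14 ± 0.24, limma, adjusted p = 0.656).

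KHK rose in Huh7 from a mean of -3.15 to -1.69, with arrays at -1.83, -1.58 and -1.66, a log2 change of 1.46 ± 0.12 (limma, adjusted p = 1.28e-07). In Huh1 it gave 1.20, 0.71 and 0.77, a change of 0.32 ± 0.12 (limma, adjusted p = 0.0401), and array 2 of 5-FU lay below control array 1. The Huh1 call of KHK was lost without array 1 of 5-FU (0.16, adjusted p = 0.186), and also without Huh1 control array 2 (adjusted p = 0.108), control array 3 (0.130), DSF array 1 (0.0505) or DSF array 2 (0.0506), and with the replicate number as a block (0.0551). It was lost as well with the slide as a block (0.0568), without the arrays alone on a slide (0.0564), with median scaling (0.0611), without the filter on dim probes (0.0503) and in a fit of the compared groups only (0.163).

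PCK1 fell in Huh7, to -0.94, -0.52 and -0.78, a change of -1.91 ± 0.26 (limma, adjusted p = 2.28e-05), and did not pass in Huh1, where it gave -2.06, -3.29 and -3.32 (-0.01 ± 0.26, limma, adjusted p = 0.979). FBP1 showed the widest spread of any group of 3 arrays for these genes. It gave 1.59, -0.28 and -0.27 after 5-FU in Huh1 against 0.76, 1.07 and 1.03 in controls, so that array 1 lay above all controls and arrays 2 and 3 below. The change was -0.61 ± 0.35 (limma, adjusted p = 0.177) with all arrays, and without array 1 it was -1.23 (limma, adjusted p = 1.16e-05), with PCK1 then at -0.43 (limma, adjusted p = 0.0405). In Huh7 FBP1 rose to -0.10, 0.18 and -0.43 from -1.08, -1.18 and -1.06, a change of 0.99 ± 0.35 (limma, adjusted p = 0.028). That call was lost, at adjusted p of 0.0544 to 0.0963, without any of the 3 control arrays or without 5-FU array 1 or 2.

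PC had the smallest called change of the set within each line. PC fell by 0.21 ± 0.07 (log2; limma, adjusted p = 0.0286) in Huh1 and rose by 0.40 ± 0.07 (limma, adjusted p = 0.000262) in Huh7, with overlapping arrays in Huh1. The Huh1 call of PC was lost without control array 1 (-0.16) or 2 (-0.21), without 5-FU array 2 or 3 (-0.17 each), and with quantile scaling (-0.13, adjusted p = 0.198). PPARGC1A gave -4.54, -3.88 and -4.05 in Huh1 after 5-FU against -5.66, -5.39 and -5.15 in controls (1.24 ± 0.25, limma, adjusted p = 0.000966), and in Huh7 -4.67, -5.01 and -4.35 against -4.96, -5.95 and -5.25 (0.71 ± 0.25, limma, adjusted p = 0.0257). The Huh7 arrays overlapped. With normexp, whose offset shrinks changes of so dim a gene, neither line passed for PPARGC1A (0.19, limma, adjusted p = 0.138 in Huh1, and -0.04 in Huh7). The Huh7 call was also lost without control array 2 (0.43), 5-FU array 1 (0.71) or 5-FU array 3 (0.55).

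The RefSeq promoter windows of genes that moved together after 5-FU are shown so that their start regions can be read side by side. G6PC1 and SLC2A2 rose and PCK2 and SLC37A4 fell in Huh7. Windows were at hand for 7 of the 9 genes, those other than PCK1 and KHK. Each line gives the 250 bases before an annotated transcript start in GRCh38.p14, read 5′ to 3′ on the strand of the gene, and capitals mark exact matches on either strand to any of 6 short motifs.
G6PC1, chr17:42900549-42900798, plus strand: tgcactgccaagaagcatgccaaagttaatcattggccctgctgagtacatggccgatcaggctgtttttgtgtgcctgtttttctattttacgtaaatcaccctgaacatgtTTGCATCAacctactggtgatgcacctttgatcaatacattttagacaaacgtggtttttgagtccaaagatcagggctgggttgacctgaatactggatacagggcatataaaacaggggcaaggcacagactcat
SLC2A2, chr3:171026721-171026970, minus strand: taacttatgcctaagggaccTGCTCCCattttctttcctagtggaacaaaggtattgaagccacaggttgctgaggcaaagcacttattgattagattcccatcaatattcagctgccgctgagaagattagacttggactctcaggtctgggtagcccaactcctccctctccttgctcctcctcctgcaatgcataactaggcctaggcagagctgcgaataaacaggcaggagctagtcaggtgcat
PCK2, chr14:24094061-24094310, plus strand: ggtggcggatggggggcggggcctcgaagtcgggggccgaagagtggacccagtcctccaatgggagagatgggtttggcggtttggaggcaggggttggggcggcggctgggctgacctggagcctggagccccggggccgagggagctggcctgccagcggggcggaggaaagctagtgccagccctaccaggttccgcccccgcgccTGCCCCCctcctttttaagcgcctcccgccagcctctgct
SLC37A4, chr11:119030878-119031127, minus strand: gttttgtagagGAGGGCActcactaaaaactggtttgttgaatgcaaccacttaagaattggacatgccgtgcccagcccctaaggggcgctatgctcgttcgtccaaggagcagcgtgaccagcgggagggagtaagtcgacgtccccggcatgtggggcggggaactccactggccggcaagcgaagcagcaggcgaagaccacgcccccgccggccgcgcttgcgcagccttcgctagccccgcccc

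The motifs searched were the cAMP response element TGACGTCA (in 1.65% of all 35116 promoter windows of this length), its core TGACG (21.2%), which overlaps it, and the C/EBP-ATF element TGATGNAA (3.14%). The others were the FOXO site TGTTTAC (2.98%), the insulin response core TGTTTTG (4.30%) and the pattern TGCNCNC (49.1%), with N for any base. TGCNCNC is a loose form of the metal response core, so a match to it need not be such a core. In the window of G6PC1 the capitals are a C/EBP-ATF element on the opposite strand, which begins 137 bases before the start. In those of SLC2A2, PCK2 and SLC37A4 they are a match to TGCNCNC, a pattern found in 49.1% of windows. SLC37A4 has 2 windows, and the one not printed, chr11:119029481-119029730, held no match to any of the motifs. Of the windows of the other genes, 1 of the 3 of PC held 3 copies of TGACG and 1 of the 2 of PPARGC1A held 1 copy. The pattern TGCNCNC was found in the window of FBP1 (2 copies), in 2 of the 3 of PC and in 1 of the 2 of PPARGC1A. These matches describe letters and not bound sites.

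The control cells of the lines differed in 8 of these 9 genes, as they did in most tested genes. Huh7 controls had more PCK1, PCK2, SLC37A4 and PC, and Huh1 controls had more SLC2A2, G6PC1, KHK and FBP1. In Huh7, 4 of the 9 genes were higher by limma, against 39.3% of all tested genes, and 4 were lower, against 38.6%. The arrays of these 8 genes did not overlap, but the share of all tested genes without such overlap was not counted here. The lines lay on different slides, bridged by 1 Huh1 DSF array on the slide of Huh7, and values with the slide as a block are given beside the plain ones.

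PCK1 was higher in Huh7 by 4.05 ± 0.26 (log2; limma, adjusted p = 3.06e-09) and by 3.86 ± 0.51 with the slide as a block, or 16.6-fold in the plain fit. PCK2 was higher by 2.13 ± 0.19 (limma, adjusted p = 1.03e-07, and 2.03 ± 0.36 with the block) on its brighter probe. On the dimmer probe the difference of the means was 0.88 ± 0.03. SLC37A4 was higher by 1.14 ± 0.10 (limma, adjusted p = 5.11e-08, and 1.11 ± 0.17 with the block). G6PC1 was lower in Huh7, at a log2 difference of -3.86 ± 0.34 (limma, adjusted p = 1.12e-07; -3.81 ± 0.60 with the block), as was KHK at -3.73 ± 0.12 (limma, adjusted p = 1.02e-12; -3.70 ± 0.23 with the block). The genes with more signal in Huh7 thus included both carboxykinases, and those with more in Huh1 the glucose-releasing phosphatase and the fructose kinase.

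SLC2A2, not well above background in Huh7 controls, was at least 99.3-fold higher in Huh1 (limma, adjusted p = 5.91e-13), with a log2 difference of -3.84 under normexp. The fitted difference with the slide as a block was -7.73 ± 0.46. FBP1 was lower in Huh7 (-2.06 ± 0.35, limma, adjusted p = 0.000107; -2.07 ± 0.69 with the block). PC was higher in Huh7 by 0.30 ± 0.07 (limma, adjusted p = 0.00187) and lost the call with the slide as a block (0.21 ± 0.13, adjusted p = 0.203) and with median scaling (0.14, adjusted p = 0.123). PPARGC1A did not pass (0.01 ± 0.25, limma, adjusted p = 0.974; 0.26 ± 0.46 with the block).

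**Figure D2:**
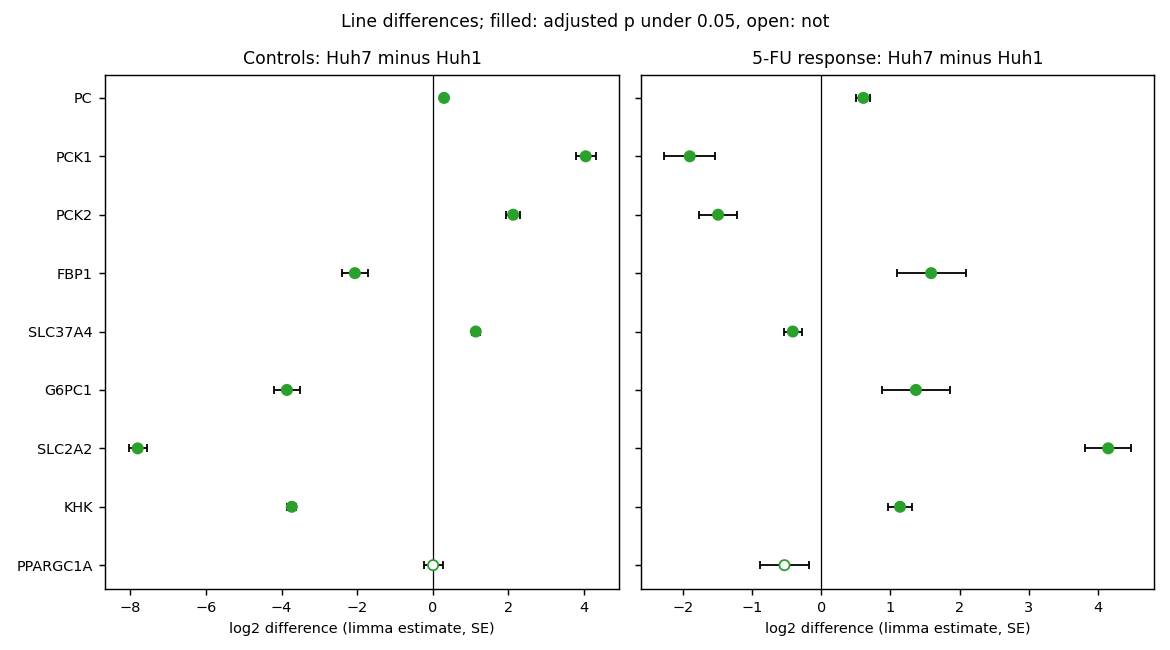
Left, log2 difference of Huh7 controls minus Huh1 controls for each gene; right, the 5-FU response in Huh7 minus that in Huh1; bars are standard errors of the limma fit and filled dots passed the test. PCK1 and SLC2A2 lie furthest apart on the left (4.05 and -7.81, the latter a fitted value to a group below background), and SLC2A2 lies furthest right on the right (4.15, also fitted with Huh7 controls below background).

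The 5-FU response itself differed between the lines for 8 of the 9 genes by limma's interaction term, 5 with a more positive response in Huh7, against 23.7% of all tested genes, and 3 with a more negative response, against 20.0%. For SLC2A2 the fitted difference in log2 response, Huh7 minus Huh1, was 4.15 ± 0.33 (limma, adjusted p = 8.46e-07), but SLC2A2 was well above background on 0 of 3 Huh7 control arrays, so its size is not a measured one, and normexp gave 0.88, which passed. The difference was 1.14 ± 0.17 for KHK (limma, adjusted p = 0.000124) and 0.61 ± 0.10 for PC (limma, adjusted p = 0.000371). It was -1.90 ± 0.37 for PCK1 (limma, adjusted p = 0.00118) and -1.49 ± 0.27 for the brighter probe of PCK2 (limma, adjusted p = 0.000627). The mean of both PCK2 probes gave -1.17. Without array 1 of Huh1 5-FU that of PCK1 was -1.49.

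The calls of FBP1 (1.59 ± 0.50, limma, adjusted p = 0.0225), SLC37A4 (-0.41 ± 0.13, limma, adjusted p = 0.0291) and G6PC1 (1.37 ± 0.49, limma, adjusted p = 0.0406) were near the threshold. Without array 1 of Huh1 5-FU the differences of FBP1 and G6PC1 were 2.22 and 1.79. With normexp that of G6PC1 was 0.50 and did not pass (adjusted p = 0.334), and that of SLC37A4 did not pass with median scaling (-0.35) or spike-in scaling (-0.24). The call of FBP1 was lost without array 2 or 3 of Huh1 5-FU or array 2 of Huh7 5-FU (1.28 to 1.45). That of SLC37A4 was lost without control array 3 or 5-FU array 1 of Huh1, control array 1 or 3 of Huh7 or 5-FU array 3 of Huh7 (-0.40 to -0.30), and that of G6PC1 in 12 of the 18 fits that left out 1 array (1.15 to 1.43). PPARGC1A did not pass (-0.53 ± 0.36, limma, adjusted p = 0.275).

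The directions after DSF and 5-FU can be read side by side, though they share the controls and the DSF values chose the genes. Between the drugs, G6PC1 was lower after DSF than after 5-FU, at a log2 difference of -3.45 ± 0.34 in Huh1 and at least 31.5-fold lower in Huh7. PCK2 was higher after DSF than after 5-FU, by 1.47 ± 0.19 in Huh1 and 1.99 ± 0.19 in Huh7 on its brighter probe and by 1.85 ± 0.13 and 2.16 ± 0.23 on the dimmer. PCK1 was lower after DSF than after 5-FU in both lines (-2.13 ± 0.26 and -2.50 ± 0.26). Within each gene, the drugs therefore stood in opposite order: PCK1 was lower after DSF than after 5-FU, and PCK2 was lower after 5-FU than after DSF. With spike-in scaling the brighter PCK2 probe changed by 0.04 after DSF and -0.75 after 5-FU in Huh1, and by -1.24 and -2.07 in Huh7.

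The gene most like PCK1 over the 18 arrays was APOC3, a lipoprotein component (Pearson's r = 0.978), followed by CBR4 (0.975) and ETHE1 (0.969). APOC3 had means of 2.16, 2.14 and 0.49 in Huh1 controls, 5-FU and DSF and of 5.56, 4.62 and 2.65 in those of Huh7. The genes most like G6PC1 were C11orf52 (0.989), CIDEB (0.987) and DEF6 (0.978). PCK1 and G6PC1 themselves had an r of -0.04, and among the other genes of the set FBP1 (0.900), SLC2A2 (0.834) and KHK (0.824) were closest to G6PC1 and PC (0.760) to PCK1. The arrays share lines and treatments, so these coefficients are a description.

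Of the other enzymes and carriers of gluconeogenesis and fructose use, 33 were listed and 29 tested. After DSF, 2 rose and 14 fell in Huh1, with a median log2 change of -0.25, against -0.02 for all tested genes, of which 26.4% rose and 26.3% fell. In Huh7, 6 rose and 8 fell, with a median of -0.10 against 0.04, and 29.1% of all tested genes rose and 24.1% fell. In Huh1 spike-in scaling gave 1 higher and 7 lower, with 3924 higher and 1679 lower among the 15844 tested genes. The split in Huh7 was 5 higher and 12 lower with quantile scaling, where 4148 of all tested genes were higher and 4243 lower. It was 4 and 9 with spike-in scaling, where 1686 of all tested genes were higher and 3929 lower. GPT, the alanine transaminase that makes pyruvate from alanine, fell to -3.33, -3.36 and -3.24 in Huh1 from -1.40, -1.66 and -1.63 (-1.75 ± 0.16, limma, adjusted p = 9.1e-07), and its fall in Huh7 was by 1.84 ± 0.16 (limma, adjusted p = 5.75e-07). SLC25A1, the mitochondrial citrate carrier, fell by 0.91 in Huh1 and by 0.60 in Huh7, and LDHA by 0.36 in each line.

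LDHB, which turns lactate back into pyruvate, was singled out after its values were seen. It rose in Huh7 after DSF from -3.75, -4.13 and -3.84 to 1.55, 1.29 and 1.31, a 39.0-fold change (5.29 ± 0.24, limma, adjusted p = 1.39e-09), and its other probe rose from a mean of -6.17 to -0.83. In Huh1, where LDHB gave 7.32 in controls, the change was -0.35 ± 0.24 (limma, adjusted p = 0.270). NR0B1, a gene in none of the lists, had a mean of 6.38 in Huh1 DSF cells and was well above background on 0 of 3 Huh7 DSF arrays. It is a value of 1 picked gene, and the cause of the LDHB rise was not tested.

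After 5-FU the same list had 3 higher and 17 lower in Huh1 (median -0.33). In Huh7 it had 4 higher and 14 lower (median -0.13). Of all tested genes 25.9% rose and 29.1% fell in Huh1, and 32.5% rose and 31.0% fell in Huh7. Quantile scaling gave the list 3 and 8 for Huh1, where 4388 of all tested genes rose and 3874 fell. For Huh7 it gave 6 and 12, where 5381 of all tested genes rose and 4763 fell. SDSL, a serine dehydratase-like gene, rose by 1.28 ± 0.09 and 1.42 ± 0.09 (limma, adjusted p = 1.61e-07 and 1.61e-08). G6PC3, the ubiquitous form of glucose 6-phosphatase, fell by 1.11 ± 0.06 and 1.17 ± 0.06 (limma, adjusted p = 2.12e-08 and 2.29e-09), whereas G6PC1 rose. TKFC, which phosphorylates the glyceraldehyde made from fructose, fell by 0.49 and 1.32, and LDHA by 0.78 and 0.87. Scaled to the spiked-in RNAs, TKFC turned to 0.33 in Huh1 and LDHA to 0.04 and 0.12, and the list had 20 genes higher and 0 lower for Huh1 and 22 higher and 0 lower for Huh7. With that scaling 12150 of the 15844 tested genes were higher and 219 lower in Huh1, and 12601 were higher and 591 lower in Huh7.

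The opposing steps of glycolysis and glycogen handling had 27 genes listed and 26 tested. After DSF, 6 rose and 12 fell in Huh1 (median -0.22) and 4 rose and 12 fell in Huh7 (median -0.20), against 26.4% higher and 26.3% lower of all tested genes in Huh1 and 29.1% and 24.1% in Huh7. The Huh1 split was 2 higher and 14 lower under median scaling, where 2691 of all tested genes were higher and 6034 lower. It was 3 higher and 8 lower under spike-in scaling, where 3924 of all tested genes were higher and 1679 lower. PFKP, the platelet phosphofructokinase, rose by 0.44 ± 0.09 (limma, adjusted p = 0.000941) in Huh1 and 2.19 ± 0.09 (limma, adjusted p = 4.1e-10) in Huh7. PFKFB4 fell by 0.24 and 2.19, PPP1R3C, a glycogen-targeting phosphatase subunit, by 0.79 and 1.54, and PYGL, the liver glycogen phosphorylase, by 1.17 and 1.11. After 5-FU, 3 rose and 12 fell in Huh1 (median -0.24) and 5 rose and 13 fell in Huh7 (median -0.29), against 25.9% higher and 29.1% lower of all tested genes in Huh1 and 32.5% and 31.0% in Huh7. PDK1, which shuts pyruvate dehydrogenase, fell by 0.82 ± 0.08 in Huh1 and fell by 3.04 ± 0.08 in Huh7 (limma, adjusted p = 1.36e-06 and 3.86e-12), PFKL by 1.37 and 1.34, PDK2 by 0.85 and 0.97 and PPP1R3C by 0.69 and 0.97. Scaled to the spiked-in RNAs, which put 12150 of all tested genes higher in Huh1 and 12601 in Huh7, the list had 17 genes higher and 0 lower for Huh1 and 18 higher and 2 lower for Huh7, with PDK1 at 0.01 in Huh1, PDK2 at 0.01 in Huh7 and PPP1R3C at 0.14 and 0.02.

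Genes that control the gluconeogenic programme numbered 43, of which 42 were tested. After DSF, 14 rose and 20 fell in Huh1 (median -0.14) and 16 rose and 12 fell in Huh7 (median 0.11), against 26.4% higher and 26.3% lower of all tested genes in Huh1 and 29.1% and 24.1% in Huh7. The 28 calls in Huh7 came to 18 with the slide as a block. Over all tested probes that block also lowered the calls, from 8174 higher and 5801 lower to 5255 and 3293. Leaving out the 2 DSF arrays on a slide of their own kept 1 Huh7 DSF array, so no count is given. Spike-in scaling split the list into 14 higher and 13 lower for Huh1, where 3924 of all tested genes rose and 1679 fell. For Huh7 that scaling gave 5 and 11, where 1686 of all tested genes rose and 3929 fell. IGFBP1, an insulin-repressed liver gene, rose from 1.90, 1.35 and 1.30 to 4.98, 5.00 and 5.12 in Huh1 (3.52 ± 0.40, limma, adjusted p = 6.78e-06), and its rise in Huh7 was 1.61 ± 0.40 (limma, adjusted p = 0.00424). IRS2, an adaptor of the insulin receptor, rose by 1.92 ± 0.13 and 1.63 ± 0.13 (limma, adjusted p = 4.56e-08 and 2.29e-07). PPARA, the fasting receptor for fatty acids, fell by 1.03 and 1.47, and MLXIPL (ChREBP), a glucose-sensing factor, by 0.91 and 1.28. After DSF, IGFBP1 and IRS2 were higher and PPARA and MLXIPL lower in both lines, in which PCK1 and G6PC1 were lower. A link between these changes was not tested.

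After 5-FU, 13 genes of this list rose and 11 fell in Huh1 (median 0.04) and 12 rose and 17 fell in Huh7 (median -0.06), against 25.9% higher and 29.1% lower of all tested genes in Huh1 and 32.5% and 31.0% in Huh7. NR0B2 (SHP), a nuclear receptor that represses bile acid and gluconeogenic genes, rose from -2.14, -0.66 and -0.70 to 2.12, 2.79 and 2.84 in Huh1 (3.76 ± 0.37, limma, adjusted p = 1.87e-06) and from -1.48, -1.61 and -1.44 to 1.76, 2.61 and 3.12 in Huh7 (4.0 ± 0.37, limma, adjusted p = 3.97e-07). TXNIP, an arrestin that limits glucose uptake, rose by 1.68 and 0.66, CREBBP, a coactivator, by 0.67 and 0.89, and PPARGC1B fell by 0.68 and 0.65. Scaled to the spiked-in RNAs, PPARGC1B turned to 0.14 and 0.34, with 12150 of all tested genes higher in Huh1 and 12601 in Huh7, and the list had 37 genes higher and 1 lower for Huh1 and 36 higher and 0 lower for Huh7.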

How the data were processed

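RNA of sorted EpCAM+ cells was labelled with Cy3 by the authors and hybridised to one-color Agilent arrays. They deposited per-array spot intensity, background-subtracted and detrended by Agilent Feature Extraction 10.7.1.1, and a table of intensity divided by each array's 75th percentile in GeneSpring. Here log2 intensity was averaged over unflagged spots and each array's 75th percentile was subtracted. Probes were named through RefSeq accessions (27099 listed, 25736 named). The brightest probe that passed stood for a gene. Of 42327 probes, 29894 passed the scanner's background flag throughout some group and were tested in a limma 3.58.1 fit (R 4.3.3) of 6 groups, with Benjamini-Hochberg adjustment over all tested probes. Calls had an adjusted p under 0.05. The fit was tested on simulated data. For normexp the raw spot median stood in for the mean, which was not at hand, and an offset of 50 was added before the log2.

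The genes and the 3 lists were chosen with earlier results of these data known. The list genes named are, for each list and drug, up to 4 that passed in both lines in 1 direction with the largest mean change, among genes well above background in all groups. A further gene that met this rule counts in its list but is not reported here. Arrays with the same replicate number did not deviate together (correlations from -0.0932 to 0.0244), so the numbers were not used as pairs. With 3 arrays per group, the number of arrays limits the precision.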

Additional observations from a re-analysis of the deposited data

Results flagged for a closer look

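The response to 5-FU differed between the lines, by limma's interaction term, for 8 genes (Huh7 minus Huh1, log2): SLC2A2 by 4.15, FBP1 by 1.59, G6PC1 by 1.37, KHK by 1.14, PC by 0.61, SLC37A4 by -0.41, PCK2 by -1.49 on its brighter probe and PCK1 by -1.90. That of SLC2A2 is a fitted value, since 0 of 3 Huh7 control arrays were well above background, and was 0.88 with normexp, and those of G6PC1, FBP1 and SLC37A4 were lost when some single arrays were left out.

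After DSF, KHK lay below all controls in Huh1 and above all controls in Huh7, with changes that differed by 1.71 (log2). The arrays of SLC2A2 lay the same way, but it was well above background on 0 of 3 control arrays and 1 of 3 DSF arrays of Huh7, so its fitted difference of 1.81 is no measured size, and normexp put its change in Huh7 at 0.02. These differences after DSF were not tested.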

How the results depend on the processing

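The tested calls were counted under 32 settings, 18 of which left out 1 array. Of the 9 genes, 6, 9, 8 and 8 passed for 5-FU in Huh1, 5-FU in Huh7, Huh7 against Huh1 controls and the line difference in the 5-FU response, and leaving out 1 array gave 3 to 6, 7 to 9, 8 to 8 and 6 to 8. A fit of the compared groups only gave 3 for 5-FU in Huh1, where G6PC1, KHK and PC were lost. It gave 5 for the line difference, where G6PC1, FBP1 and SLC37A4 were lost. Of all tested probes, that fit had 5616 higher and 6966 lower for 5-FU in Huh1, against 6642 and 7761 in the main fit. For the line difference it had 5145 and 4846, against 5606 and 5329. With the replicate number as a block the counts were 5, 9, 8 and 8, and the call lost was that of KHK in Huh1. Among list genes, spike-in scaling gave 8 calls of other enzymes (16 in the main fit) and 11 of opposing steps (18) after DSF in Huh1, and for the control list 16 after DSF in Huh7 (28) and 38 after 5-FU in Huh1 (24). Quantile scaling gave 11 calls of other enzymes after 5-FU in Huh1 (20), the slide as a block gave 18 of the control list after DSF in Huh7, and leaving out the arrays alone on a slide gave 17. The causes were not tested. For the list genes, the counts over all tested genes or probes under these settings stand beside the results above.

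Signs turned for small changes. For 5-FU in Huh1, spike-in scaling gave 0.82 for PCK1, 0.22 for FBP1 and 0.62 for PC, and leaving out 1 array gave PCK1 up to 0.21 and at lowest -0.43, and SLC2A2 -0.05 to 0.24. For DSF in Huh1, PCK2 was 0.04 with spike-in scaling and 0.32 as the mean of its probes, and leaving out 1 array gave -0.26 to 0.0035. PPARGC1A gave -0.04 with normexp for 5-FU in Huh7. For the controls, Huh7 against Huh1, PPARGC1A gave -0.04 with normexp, -0.16 with quantile scaling, -0.15 with median scaling and -0.20 to 0.29 when 1 array was left out. Dim signals limit PPARGC1A throughout, SLC2A2 and G6PC1 in Huh7 and PCK1 in Huh1 DSF cells. There the background correction, with the offset of normexp, sets the size of a change. The change of PCK1 in Huh1 after DSF was -2.14 in the main fit and -1.06 with normexp.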
